A study of Mus musculus with 6 samples.

Results

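The genes of mitochondrial ribosomal proteins were examined by RNA-seq in dental pulp of the mouse mandibular first molar at PN3.5 (postnatal day 3.5). They were defined by name alone, as every gene in the count table whose symbol is *Mrpl* or *Mrps* followed by a number and at most a single letter, which gave 78 of 27506 genes. The list itself was chosen with earlier results of these data known. The 3 control libraries came from *Ror2fl/fl* mice, which carry the floxed allele of *Ror2* without Cre, and the 3 mutant libraries from *Osr2-Cre;Ror2fl/fl* mice, in which Cre driven by *Osr2* deletes *Ror2* in the dental mesenchyme. All mice were of the C57BL/6 strain, and the floxed allele is common to both groups. The labels do not say whether each library came from a separate animal or litter, so p-values measure only the spread between these libraries. Those of control libraries 2 and 3 carry a letter code that differs from that of control library 1 and is not explained.

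Mitochondria keep a ribosome of their own, which translates the few messages encoded in mitochondrial DNA, all for membrane subunits of the respiratory chain and ATP synthase. Its RNAs come from mitochondrial DNA, whereas every protein is encoded in the nucleus, made in the cytosol and imported. Some of these proteins descend from bacterial ribosomal proteins, and others were added during the evolution of mitochondria. Of the 78 genes, 51 encode proteins of the large subunit, including *Mrps18a* and *Mrps30*, whose products sit there despite their names, and 27 carry small subunit names. Here 45 of them were classed as having a bacterial counterpart and 32 as specific to mitochondria. Among relatives of bacterial S18, *Mrps18a* and *Mrps18b* were classed as specific to mitochondria and *Mrps18c* as having a bacterial counterpart. The remaining gene is *Mrps36*, whose product is now regarded as a subunit of the 2-oxoglutarate dehydrogenase complex.

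Like the genes of cytosolic ribosomal proteins, these genes were short. The median length of their representative transcripts was 1253 bases, of which 582 were coding, against 2549 and 1059 bases over all genes tested, and 777.5 and 454.5 bases for 80 cytosolic ribosomal protein genes. They shared less sequence with other genes than the cytosolic genes did, but more than most genes. A median of 1.49% of their 75-base stretches, the length of a sequencing read here, also occurred in another gene. It was 19.4% for the cytosolic genes and 0.19% over all genes tested. Another gene can be a copy or an overlapping neighbour. The 78 genes are spread over 17 chromosomes.

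Read sharing still mattered for a few of them, and the shared sequences are shown because no read inside them can be assigned. The whole coding sequence of *Mrpl23* is matched without a mismatch by a copy on another chromosome, *Mrpl23-ps1* (chr2:74591330-74591909). The coding sequences of *Mrps33* and *Mrpl51* have copies named *Gm5776* (chr7:54412158-54412478) and *Gm14017* (chr2:121481129-121481514). The lines below give a 75-base coding stretch (mm10) that each gene has in common with its copy, written 5′ to 3′ in the gene's direction.
Mrpl23, shared with Mrpl23-ps1, chr7:142535005-142535079, plus strand: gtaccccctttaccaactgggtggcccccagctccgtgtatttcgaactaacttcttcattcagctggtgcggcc
Mrps33, shared with Gm5776, chr6:39805511-39805585, minus strand: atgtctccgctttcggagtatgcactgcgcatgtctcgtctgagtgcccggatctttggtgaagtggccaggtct
Mrpl51, shared with Gm14017, chr6:125193223-125193297, plus strand: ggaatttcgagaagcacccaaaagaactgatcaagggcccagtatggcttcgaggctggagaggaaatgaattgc

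The coding sequence of *Mrps33* differs from *Gm5776* at a single base in 318, G171A, counted from the first base of the start codon with the gene's base first. Within the coding sequence, only a read that covers this base, in capitals in the pair of 41-base windows here, can tell gene from copy.
Mrps33: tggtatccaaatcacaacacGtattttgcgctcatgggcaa
Gm5776: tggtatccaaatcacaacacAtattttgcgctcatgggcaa

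The deposited values are estimated counts, which were rounded, scaled to CPM (each gene's share of the library's counts, scaled with edgeR's TMM factors) and compared with edgeR's quasi-likelihood test. The libraries held 56134770 to 62628940 estimated counts, and all 78 genes passed the filter on low counts, with 45 to 3535 counts in a library. Only *Mrpl23* had fewer than 366 in any library. *Ror2* itself was at 38.2, 36.2 and 36.7 CPM in the controls and at 27.9, 28.1 and 26.3 CPM in the mutants, a log2 fold change of −0.43 ± 0.08 (SE, adjusted p = 0.0134), so that the labelled genotypes were visible in every library. The tissue label was checked against marker genes. Dental mesenchyme markers such as *Dspp* and *Col1a1* were present, but the summed markers of dental epithelium and ameloblasts, mainly *Amelx*, *Ambn* and *Enam*, made up 17.1% to 25.5% of all counts.

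In the mutants, 11 of the 78 genes rose and none fell at an adjusted p under 0.05 in edgeR's quasi-likelihood test. Among all 19330 genes tested, 10.4% were called higher and 9.84% lower, so the share that rose, 14.1%, was near the background, whereas the share that fell was below it. At an unadjusted p under 0.05, 22 of the genes were higher, against 19.6% of all genes, and 1 was lower, *Mrps14*, against 18.7%. DESeq2 called 12 of the genes higher and none lower, where it called 14.0% of all genes in each direction, and limma voom called 18 higher and none lower, with 16.4% of all genes in each direction. The log2 fold change was above 0 for 64 of the 78 genes, compared with 50.7% of all genes, and its median was 0.18, compared with 0.01. The changes were small. None of the 78 genes passed a log2 fold change of 1 in either direction, which 2158 of all genes did, and their SD was 0.22, against 0.88 for all genes. All genes reach down to a mean of 0.10 CPM, where low counts widen fold changes, and the 78 only to 1.49 CPM. The median absolute log2 fold change differed less, at 0.19 against 0.32. In 23 genes every mutant library was above every control library and in 2, *Mrpl44* and *Mrps14*, below, where 22.6% and 22.1% of all genes were so separated. A library holds RNA of many cells, so fewer cells of a type and less RNA per cell cannot be told apart.

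**Figure D1:**
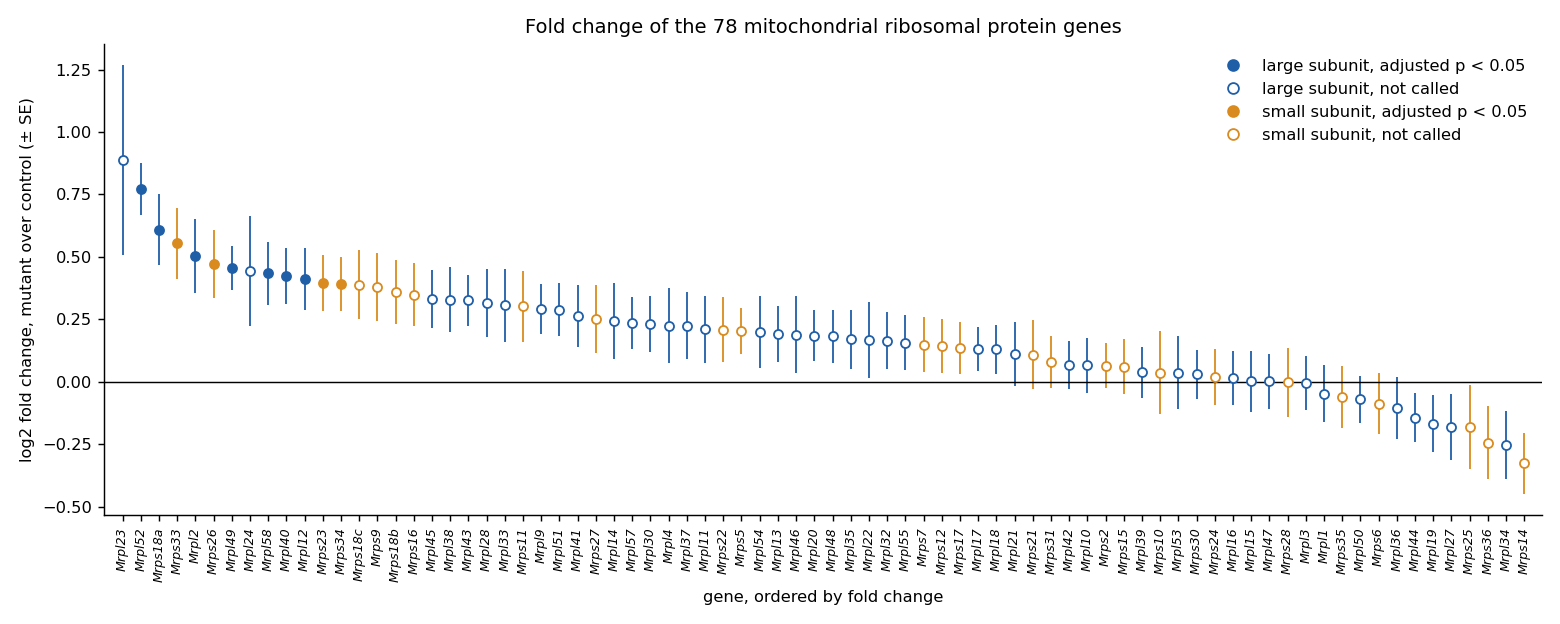
The log2 fold change (mutant over control, vertical axis) of each of the 78 genes with its SE, ordered from highest to lowest, with large subunit genes in blue and small subunit genes in orange. The 11 filled points are the genes with an adjusted p under 0.05, all above 0, and *Mrpl23* at the left has the highest fold change and an SE of 0.38.

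The number of calls depended on single libraries. Without control library 2 and without control library 3 it was 1 each time, where 2.4% and 2.31% of all genes were called higher. It was 7 without control library 1 (6.51% of all genes), 5 without mutant library 1 (6.44%) and 5 without mutant library 2 (9.99%). *Mrpl52* was the gene called in all of these fits. The median log2 fold change stayed between 0.13 and 0.23 in all 6 fits that left out a library.

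Among the 7 large subunit genes that rose, *Mrpl52*, which encodes a protein specific to mitochondrial ribosomes, changed most. The gene (ENSMUSG00000010406.12) lies at chr14:54426909-54429756 on the plus strand in mm10. It was at 28.8, 24.9 and 26.0 CPM in the controls and at 43.3, 50.2 and 42.7 CPM in the mutants, 1.71-fold higher, with a log2 fold change of 0.77 ± 0.11 (SE, adjusted p = 0.00331). The groups were far apart, and the lowest mutant library was well above the highest control. *Mrpl52* shares no 75-base stretch with another gene, and it was called in each of the 21 alternative analyses (log2 fold change 0.35 to 0.82, adjusted p 4.77e-08 to 0.0291).

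*Mrpl49* (chr19:6053622-6057785, minus strand), which also encodes a protein without a bacterial counterpart, was at 20.8, 20.6 and 20.2 CPM in the controls and at 27.3, 29.4 and 27.8 CPM in the mutants. Its log2 fold change was 0.46 ± 0.09 (SE, adjusted p = 0.013), with the tightest controls of the 11 genes that rose (SD 0.307 CPM, n = 3). It was called in 18 of the 21 alternatives.

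*Mrps18a* encodes a member of a family of proteins related to bacterial S18 and belongs to the large subunit. It was at 14.8, 12.04 and 12.5 CPM in the controls and at 17.6, 23.3 and 19.1 CPM in the mutants, with a log2 fold change of 0.61 ± 0.14 (SE, adjusted p = 0.0231). The groups did not overlap, and mutant library 2 was the highest. Its relatives belong to the small subunit. *Mrps18b* was at 9.24 ± 0.761 CPM in the controls and 11.9 ± 1.32 CPM in the mutants, and *Mrps18c* at 9.28 ± 1.02 and 12.2 ± 1.47 CPM (SD, n = 3 each). Neither passed the test (log2 fold changes 0.36 ± 0.13 and 0.39 ± 0.14 SE, adjusted p = 0.0787 and 0.0767, edgeR), in both the groups did not overlap, and their difference from *Mrps18a* was not tested.

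*Mrpl2*, a protein of the conserved core near the site of peptide bond formation, was at 17.5, 14.2 and 14.9 CPM in the controls and at 21.7, 25.9 and 18.4 CPM in the mutants (log2 fold change 0.50 ± 0.15 SE, adjusted p = 0.0467). *Mrpl12*, the stalk protein that recruits translation factors, was at 33.5, 26.8 and 27.4 CPM in the controls and at 34.5, 42.3 and 39.8 CPM in the mutants (0.41 ± 0.12, adjusted p = 0.0497). For *Mrpl12* the highest control and the lowest mutant were nearly level. These were the only called genes classed here as having a bacterial counterpart, with *Mrps18a* classed as specific to mitochondria. Neither *Mrpl2* nor *Mrpl12* was called in more than 9 of the 21 alternatives.

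*Mrpl58* encodes a relative of release factors that became part of the large subunit and can free stalled peptides. It was at 20.7, 17.5 and 18.02 CPM in the controls and at 23.6, 29.2 and 23.3 CPM in the mutants (log2 fold change 0.43 ± 0.13 SE, adjusted p = 0.0446). *Mrpl40* was at 16.1, 13.5 and 13.2 CPM in the controls and at 18.4, 19.4 and 19.6 CPM in the mutants (0.42 ± 0.11, adjusted p = 0.0354). In both, control library 1 was the highest control and remained below every mutant library.

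The 4 small subunit genes that rose are all specific to mitochondria. *Mrps23* was at 28.9, 24.3 and 25.7 CPM in the controls and at 33.5, 38.7 and 31.6 CPM in the mutants, with a log2 fold change of 0.40 ± 0.11 (SE, adjusted p = 0.0438). *Mrps34*, a protein needed for the stability of the small subunit, was at 22.3, 19.9 and 21.3 CPM in the controls and at 28.0, 30.4 and 24.996 CPM in the mutants (0.39 ± 0.11, adjusted p = 0.0384). As 69.4% of its 75-base stretches also occur in another gene, mainly in the overlapping neighbours *Nme3* and *Mapk8ip3*, its reads can be counted for either. It was called in 9 of the 21 alternatives, and not when summed with these neighbours (0.49, adjusted p = 0.0642, edgeR) or with offsets for GC content and length (0.02, adjusted p = 0.885).

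*Mrps26* was at 18.9, 14.99 and 15.8 CPM in the controls and at 20.3, 26.3 and 22.4 CPM in the mutants (log2 fold change 0.47 ± 0.14 SE, adjusted p = 0.0446). It shares 2.73% of its 75-base stretches with 5 other genes, and the sum over all of these whole genes, of which *Mrps26* is only a part, had a log2 fold change of −0.02. It was called in 11 of the 21 alternatives. *Mrps33* was at 28.2, 22.3 and 23.1 CPM in the controls and at 30.8, 35.5 and 41.8 CPM in the mutants (0.56 ± 0.14, adjusted p = 0.031), and was the exception in that mutant library 3 was clearly the highest. Its call depended on the copy whose sequence is shown above, as described below.

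**Figure D2:**
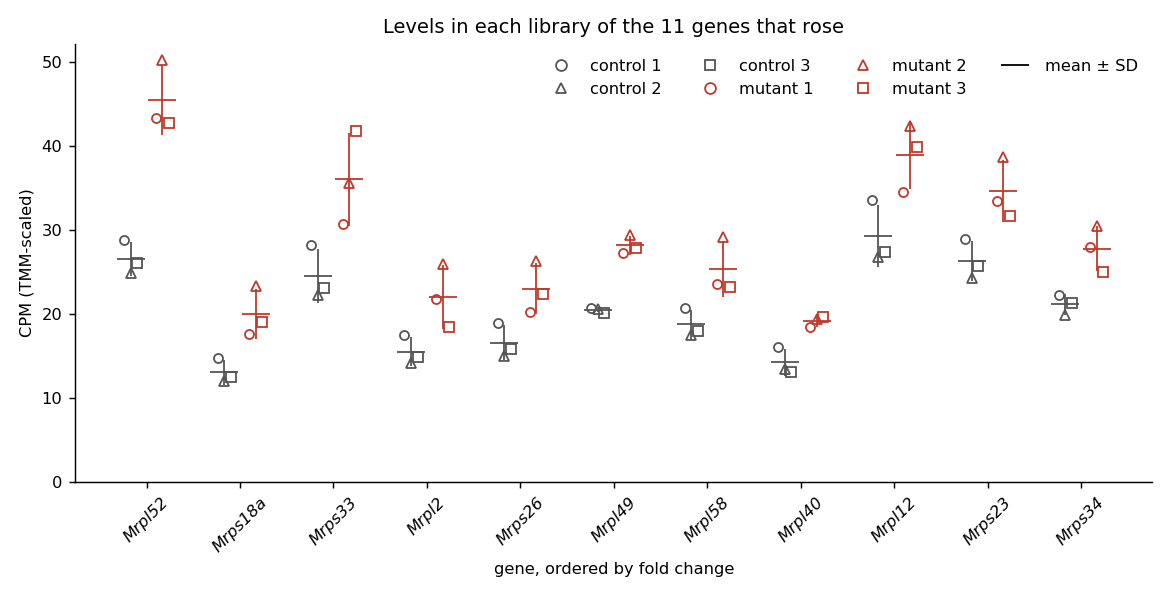
CPM (vertical axis, from 0) of the 11 genes that rose, in each control (grey) and mutant (red) library, with the mean and SD of each group. In every gene the mutant libraries lie above the control libraries, by the widest margin in *Mrpl52* and by a narrow one in *Mrpl12*.

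By class, 9 of the 32 genes specific to mitochondria rose (28.1%) and 2 of the 45 with a bacterial counterpart (4.44%), where 10.4% of all genes were called higher. Their medians were 0.24 and 0.14 on the log2 fold change scale. In the large subunit 5 of 22 mitochondria-specific and 2 of 29 bacterial-type genes rose, and in the small subunit 4 of 10 and 0 of 16. At an unadjusted p under 0.05, 14 of the 32 and 8 of the 45 genes were higher, against 19.6% of all genes. Among the 16 small subunit genes with a bacterial counterpart, edgeR's test gave 3 higher and 1 lower, *Mrps14*, at that p. The summed level of the mitochondria-specific genes was 623, 547 and 555 CPM in the controls and 640, 749 and 695 CPM in the mutants, without overlap. The separation was narrow and rested on control library 1 (623) against mutant library 1 (640). In these libraries *Mrpl52* alone was at 28.8 and 43.3 CPM, so the lack of overlap is not shown to hold across the class. The summed level of the bacterial-type genes was 855, 747 and 767 CPM in the controls and 806, 959 and 876 CPM in the mutants, with overlap. The split varied with the fit. With scaling by library size alone, the 4 genes called higher were all specific to mitochondria. With offsets for GC content and length, *Mrpl17*, *Mrpl32*, *Mrpl35* and *Mrps5* were the bacterial-type genes among the 10 called higher. With limma voom, they were *Mrpl2*, *Mrpl9*, *Mrpl12*, *Mrps9*, *Mrps16* and *Mrps18c* among 18. The difference between the classes was not tested.

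Levels were also summed by subunit. The summed level of large subunit genes was 936 ± 66.8 CPM in the controls and 1084 ± 96.4 CPM in the mutants, and that of small subunit genes 438 ± 33.2 and 498 ± 35.1 CPM (SD, n = 3 each), with overlap between groups in both because control library 1 exceeded mutant library 1. The median log2 fold changes were 0.19 and 0.14. Per kilobase of transcript, the mean level of large subunit genes was 1.10, 1.11 and 1.08 times that of small subunit genes in the controls and 1.129, 1.201 and 1.129 times in the mutants, without overlap. That mean depends most on the genes highest per kilobase. *Mrpl52*, the highest of them, was at 63.6 CPM per kb in the controls and 108.6 in the mutants. The ratio without *Mrpl52* was not computed, so it is not shown to be a trait of the subunit.

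The level per kilobase of transcript ranged from 2.15 CPM per kb for *Mrpl23* to 86.1 CPM per kb for *Mrpl52* over the 6 libraries, and depends on the transcript taken as representative. After *Mrpl52*, the highest were *Mrps21* (49.6), *Mrpl54* (40.4), *Mrpl33* (36.7) and *Mrpl42* (36.6 CPM per kb). None of these 4 genes passed the test, with log2 fold changes of 0.11, 0.20, 0.31 and 0.07 and adjusted p-values of 0.591, 0.342, 0.159 and 0.628 (edgeR). In each of them the groups overlapped.

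Other genes with particular roles were not called. *Mrpl45*, whose product anchors the ribosome to the inner membrane, was at 15.6 ± 0.91 CPM in the controls and 19.6 ± 2.19 CPM in the mutants (SD, n = 3, adjusted p = 0.0769 in edgeR). *Mrpl44*, which has an RNase III fold, was at 14.9, 14.4 and 14.9 CPM in the controls and at 12.8, 13.4 and 13.8 CPM in the mutants (log2 fold change −0.14 ± 0.10 SE, adjusted p = 0.313). *Mrps30* was at 19.9 ± 1.44 and 20.3 ± 0.40 CPM (SD, n = 3, adjusted p = 0.84 in edgeR). *Mrps36* was at 9.80, 8.53 and 8.62 CPM in the controls and at 6.58, 7.37 and 8.81 CPM in the mutants (−0.24 ± 0.14, adjusted p = 0.248). At the lower end of the list, *Mrps14*, named after its value was seen, was at 16.6, 14.7 and 13.7 CPM in the controls and at 11.6, 11.2 and 13.0 CPM in the mutants (−0.33 ± 0.12, adjusted p = 0.0862).

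Within each group the genes shared a library pattern. Control library 1 was the highest control for 72 of the 78 genes, including all 11 that rose, and mutant library 2 was the highest of all 6 libraries for 45 genes, including 9 of those 11. These shares were not counted over all genes. The same libraries were highest in the summed levels of cytosolic ribosomal protein genes (14471, 11846 and 12562 CPM in the controls, 16774, 19536 and 17503 in the mutants) and of ribosome assembly genes. They were not in the sum of genes for transcription of mitochondrial DNA. The pattern is thus not particular to the 78 genes. Over all genes, mutant library 2 also stood apart from the other mutants, with a chi-square per gene of 273 and 221 against them, where mutant libraries 1 and 3 gave 60.5 against each other. Relative to the control mean of each gene, the median level was 0.12, −0.08 and −0.04 in control libraries 1 to 3 and 0.07, 0.29 and 0.17 in mutant libraries 1 to 3, on the log2 CPM scale. Control library 1 was therefore above mutant library 1. The summed level of 8 dental mesenchyme and odontoblast markers was ordered inversely in each group, at 23495, 65506 and 48094 CPM in the controls and 52336, 20959 and 28241 CPM in the mutants. None of these 8 markers was called or at 0. The 7 epithelial markers summed to 171189 to 191568 CPM in the controls and 184788 to 255038 CPM in the mutants, with none called. Among them, *Amelx* and *Krt14* were higher in every mutant library than in every control library (log2 fold changes 0.56 and 0.40). *Enam* was lower in every mutant library (−0.47), and the groups overlapped for the other epithelial markers. The 6 muscle markers were low in every library but separated the groups, at 8.13 to 31.1 CPM in the controls and 1.91 to 2.20 CPM in the mutants, and the 5 that could be tested were all called lower. Blood markers were at 782 to 1318 and 243.4 to 932 CPM, those of macrophages and leukocytes at 56.7 to 74.9 and 49.2 to 66.6 CPM, of endothelium at 149.5 to 202 and 138 to 186 CPM, of osteoclasts at 71.9 to 77.1 and 54.5 to 98.6 CPM, and of Schwann cells at 4.72 to 5.33 and 6.93 to 9.77 CPM. Of these, 2 blood markers and 1 of macrophages and leukocytes were called lower and 1 Schwann cell marker higher, and the Schwann cell sums did not overlap. Their part in the differences between groups was not tested.

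**Figure D3:**
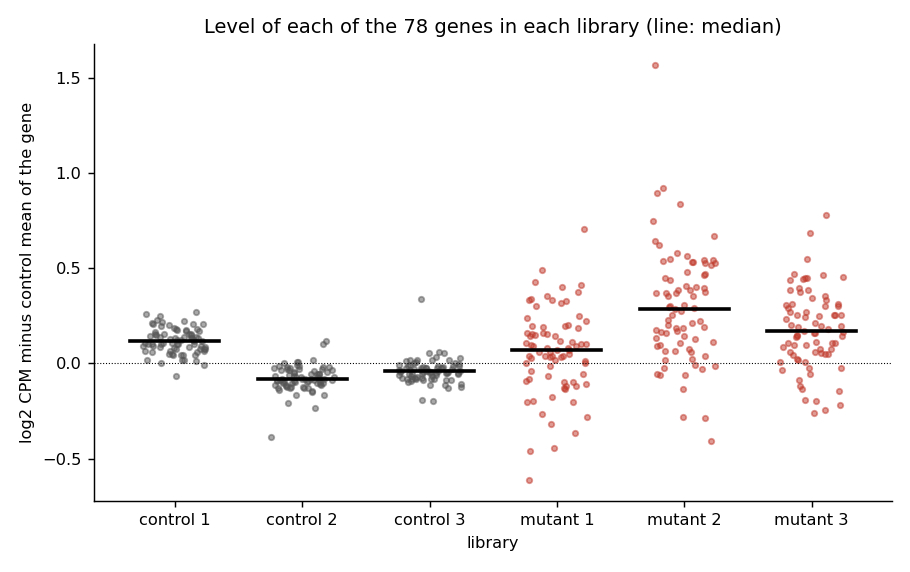
Level of each of the 78 genes in each library (points), as log2 CPM minus the mean of the control libraries for that gene, with the median of each library as a line. Control library 1 lies above the other control libraries, and mutant library 2 has the highest median, 0.29.

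The pseudogene copies changed what could be said of several genes. For 16 of the 78 genes, at least 20 of the 75-base stretches occur in a pseudogene (18 pseudogenes in all), and their reads could be counted for either. Only 3.98% to 9.59% of the counts of *Mrpl23* and *Mrpl23-ps1* together were placed on the gene. *Mrpl23* was at 1.06, 0.772 and 1.30 CPM in the controls and at 1.29, 3.08 and 1.42 CPM in the mutants, while *Mrpl23-ps1* was at 21.04, 18.6 and 19.3 CPM in the controls and at 24.1, 29.1 and 27.2 CPM in the mutants. The gene alone had the largest log2 fold change of all 78, 0.89 ± 0.38 (SE), and failed the test (adjusted p = 0.124, edgeR). Gene and copy summed gave 22.1, 19.4 and 20.6 CPM in the controls and 25.4, 32.2 and 28.6 CPM in the mutants, with a log2 fold change of 0.47 ± 0.12 (SE, adjusted p = 0.028). The median level of the 78 genes as counted was 19.3 CPM.

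For *Mrps33* the division itself differed between the groups. The gene held 59.6%, 59.6% and 58.2% of the joint counts in the controls and 71.0%, 70.1% and 74.5% in the mutants. *Gm5776* was at 19.1, 15.1 and 16.6 CPM in the controls and at 12.6, 15.2 and 14.3 CPM in the mutants. The sum of both was at 41.5 ± 5.16 CPM in the controls and 50.04 ± 6.41 CPM in the mutants (SD, n = 3), and was not called (log2 fold change 0.27 ± 0.13 SE, adjusted p = 0.161 in edgeR).

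*Mrpl51* showed the same arrangement. It held 79.7%, 80.6% and 80.7% of the counts shared with *Gm14017* in the controls and 91.4%, 91.2% and 89.7% in the mutants. In *Mrpl27* the division went the other way, from 83.5%, 84.8% and 80.9% in the controls to 59.4%, 61.0% and 62.1% in the mutants, as the copy *Gm6304* was at 2.93, 2.30 and 2.67 CPM in the controls and 7.63, 7.92 and 6.58 CPM in the mutants. Of the 16 genes, the share on the gene was higher in every mutant library than in every control for 4, lower for 6 and overlapped for 6. These 16 genes, and *Mrpl51* and *Mrpl27* among them, were described after their values were seen. After summing gene and copies, which called 10.3% of all genes higher, 2 of the 16 were called higher (*Mrpl23* and *Mrps18b*) and none lower, where the genes alone gave 1 call, *Mrps33*.

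**Figure D4:**
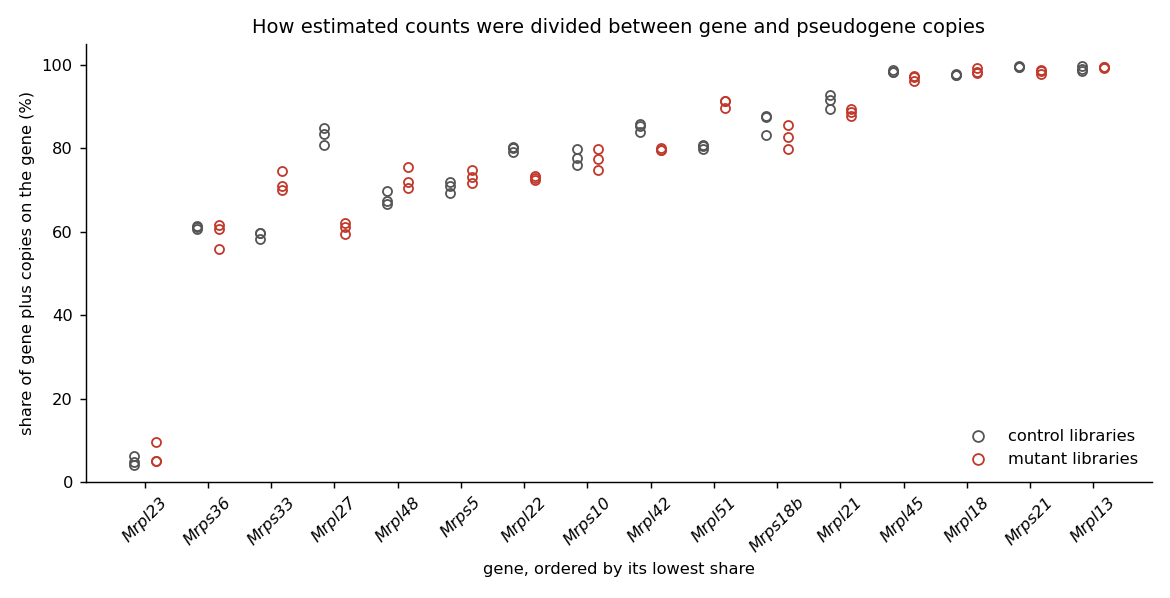
Share of the estimated counts of gene and pseudogene copies that was placed on the gene (percent, vertical axis) for the 16 genes with such copies, with a point for each control (grey) and mutant (red) library. *Mrpl23* lies below 10%, and the groups are separated most in *Mrpl27*, *Mrps33* and *Mrpl51*.

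Counting every kind of gene, 39 of the 78 share at least 20 stretches with another gene and 39 do not. Of the latter, 7 rose (17.9%, against 10.4% of all genes), 32 had a log2 fold change above 0, and the median was 0.19. Of those that share sequence, 4 rose (10.3%, level with all genes), 32 were above 0, and the median was 0.18.

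The cytosolic ribosomal protein genes, which are shorter still and have many copies, are given beside the mitochondrial list. Of 80 such genes 41 were called higher (51.2%) and 10 lower (12.5%), against 10.4% and 9.84% of all genes. Their median log2 fold change was 0.44, with a range from −2.36 to 4.50, and 21 of them passed a log2 fold change of 1 in either direction. In the 40S subunit 20 of 33 rose and 4 fell, and in the 60S subunit 21 of 47 rose and 6 fell. *Rps7* was at 8.21, 7.82 and 6.20 CPM in the controls and at 150, 178 and 175 CPM in the mutants, whereas *Rps23* was at 72.2, 60.7 and 65.6 CPM in the controls and at 12.8, 16.4 and 9.59 CPM in the mutants. Of their 75-base stretches, 26.6% and 36.3% also occur in another gene. The other genes with the largest changes were *Rps25* (2.08) and *Rps6* (−1.16) in the 40S subunit, and *Rpl36a* (3.14), *Rpl38* (3.09), *Rpl37* (−0.88) and *Rpl27a* (−1.41) in the 60S subunit, all on the log2 fold change scale. Their summed level was 12960 ± 1357 CPM in the controls and 17938 ± 1432 CPM in the mutants (SD, n = 3), without overlap. A difference between the mitochondrial and cytosolic lists was not tested.

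Other genes of mitochondrial gene expression were counted against the same background of 10.4% called higher and 9.84% lower. None of 5 further mitoribosomal genes (*Dap3*, *Ptcd3*, *Chchd1*, *Aurkaip1* and *Gadd45gip1*) was called in edgeR's test, and 1 of them had an unadjusted p under 0.05. Of 26 genes for ribosome assembly, 2 rose and none fell, with a median log2 fold change of 0.18. *Mettl17*, a factor for assembly of the small subunit, was at 5.50, 5.10 and 5.77 CPM in the controls and at 8.59, 17.9 and 7.54 CPM in the mutants (1.06 ± 0.31 SE, adjusted p = 0.0447), with mutant library 2 far above the others. *Mpv17l2*, an inner membrane protein of the same process, had a log2 fold change of 0.61 ± 0.15 (SE, adjusted p = 0.0262). Of 15 translation and insertion factors (13.3% called in either direction, against 20.2% of all genes), *Oxa1l*, the insertase for newly made membrane proteins, rose (0.49 ± 0.10 SE, adjusted p = 0.0138) and *Lrpprc*, which stabilises mitochondrial messages, fell (−0.38 ± 0.11 SE, adjusted p = 0.0418).

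Of 17 genes for transcription of mitochondrial DNA and control of nuclear genes for mitochondria, 2 rose and 2 fell (23.5% called, near the background of 20.2%). *Polrmt*, the mitochondrial RNA polymerase, had a log2 fold change of 0.41 ± 0.11 (SE, adjusted p = 0.0392) and *Myc* of 0.50 ± 0.11 (SE, adjusted p = 0.0185). *Gabpa*, the DNA-binding subunit of an ETS factor known for activating such nuclear genes, was at 56.9, 64.9 and 63.1 CPM in the controls and at 45.5, 33.6 and 48.1 CPM in the mutants (−0.54 ± 0.14 SE, adjusted p = 0.0329). *Yy1*, another regulator of nuclear mitochondrial genes, was at 97.3, 109 and 108 CPM in the controls and at 77.7, 61.8 and 86.5 CPM in the mutants (−0.48 ± 0.13 SE, adjusted p = 0.0397). For both, the lowest library was mutant library 2, in which the median of the ribosomal protein genes was highest.

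The RNAs encoded in mitochondrial DNA were measured as well, as 13 messages and 2 ribosomal RNAs. Of the 13 messages 2 rose and 1 fell (23.1% called, against 20.2% of all genes), with a median log2 fold change of 0.04, and neither ribosomal RNA was called. The summed level of the messages was 25443 ± 1149 CPM in the controls and 25459 ± 2912 CPM in the mutants (SD, n = 3). *mt-Atp8*, a subunit of ATP synthase, was at 483, 468 and 478 CPM in the controls and at 1127, 1089 and 931 CPM in the mutants (1.14 ± 0.12 SE, adjusted p = 0.00118). *mt-Nd4l* had a log2 fold change of 0.76 ± 0.15 and *mt-Nd4* of −0.61 ± 0.14 (SE, adjusted p = 0.0139 and 0.0243), both subunits of complex I. These neighbours are read from a common transcript. Of their 75-base stretches, 98.7% and 61.5% also occur in another gene, where the median over the 13 messages was 39.8%. Which genes hold these stretches is not given here.

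**Figure D5:**
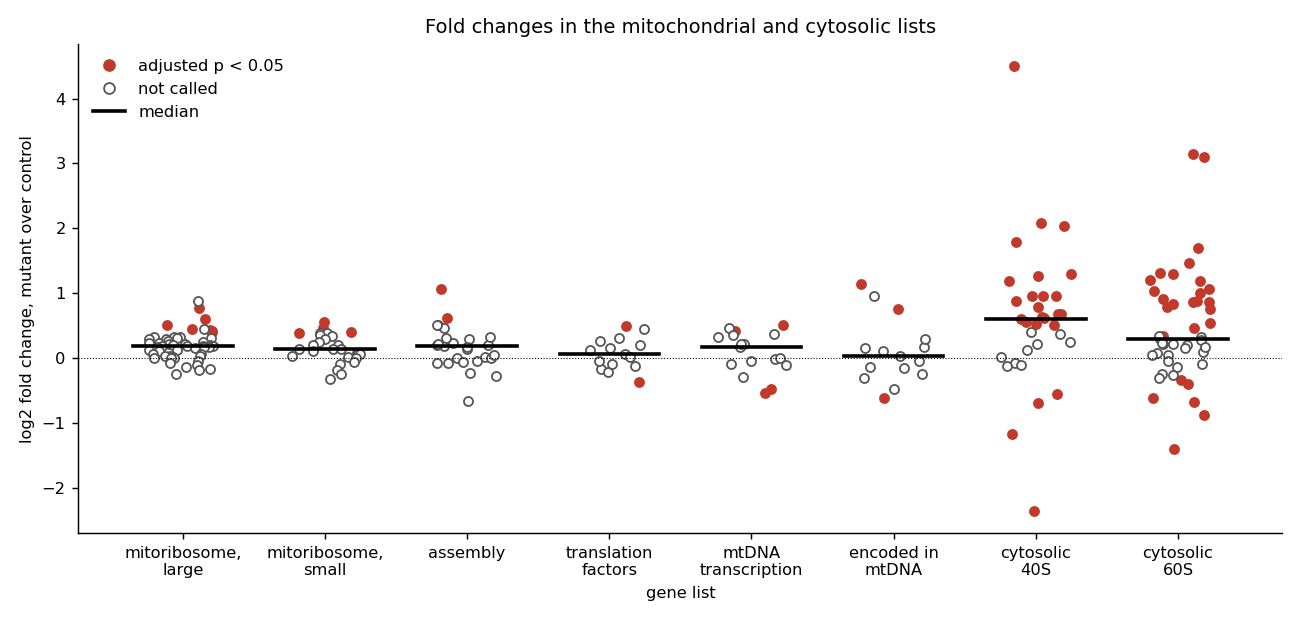
Log2 fold change (mutant over control, vertical axis) of every gene of the large and small mitoribosomal lists and of the 6 other lists, with called genes in red, other genes open and the median of each list as a line. The mitoribosomal genes lie between −0.33 and 0.89, whereas the cytosolic lists spread from −2.36 to 4.50.

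Promoter sequence was examined because ETS, NRF1 and YY1 sites are known from promoters of nuclear mitochondrial genes. RefSeq promoters (GRCm38.p6, 250 bases before to 50 after the start site) were found for 69 of the 78 genes, and each motif was searched as written on both strands. The ETS motif CCGGAAG occurred in 26 of the 69 genes (37.7%), against 18.1% of 11496 tested protein-coding genes and 15.5% of all their promoter windows. CGCATGC, the centre of the NRF1 motif, occurred in 8 genes (11.6%, against 6.61% of genes), and ATGGCGG, the core of the YY1 motif, in 13 (18.8% against 8.46%). Among the genes that rose, 10 had a promoter and 6 of these held the ETS motif, *Mrpl52*, *Mrpl58*, *Mrps18a*, *Mrps23*, *Mrps26* and *Mrps33*. In 4 of them it lay within the 100 bases before the start site, which are printed here 5′ to 3′ in the gene's direction with the match in capitals. In *Mrpl52* and *Mrps26* it is on the opposite strand and reads CTTCCGG.
Mrpl52, chr14:54426809-54426908, plus strand: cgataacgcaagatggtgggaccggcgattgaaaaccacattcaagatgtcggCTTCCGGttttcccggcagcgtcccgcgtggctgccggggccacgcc
Mrpl58, chr11:115403652-115403751, plus strand: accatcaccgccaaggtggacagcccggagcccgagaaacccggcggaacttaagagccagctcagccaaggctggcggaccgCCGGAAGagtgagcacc
Mrps18a, chr17:46110904-46111003, plus strand: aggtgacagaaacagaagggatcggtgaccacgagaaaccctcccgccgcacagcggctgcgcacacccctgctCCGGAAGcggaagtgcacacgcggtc
Mrps26, chr2:130563657-130563756, plus strand: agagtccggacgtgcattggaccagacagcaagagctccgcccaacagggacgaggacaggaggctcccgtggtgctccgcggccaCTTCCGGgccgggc

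The matches began 47, 17, 26 and 14 bases before the start site in *Mrpl52*, *Mrpl58*, *Mrps18a* and *Mrps26*. Of the 26 genes with the motif, 6 rose and 20 were not called, and *Mrpl2*, *Mrpl12*, *Mrpl40* and *Mrpl49*, which rose, had no match. A match is a description of the letters in this window and does not show binding.

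Fold change was also set beside transcript properties, across genes, which are not independent replicates and share the same 6 libraries. Over the 78 genes, Spearman's rho of the log2 fold change was −0.12 with transcript length and 0.29 with GC content. Over all 19330 genes tested it was −0.30 and 0.34, so shorter genes and genes richer in GC tended to be higher in the mutants. With an offset for transcript length in the fit, 53 of the 78 genes remained above 0. The median log2 fold change of the 78 was then 0.08, compared with 0.02 over all genes. Of the 78 genes 7 were then called higher, with 11.4% of all genes, and 1, *Mrpl34*, lower, with 9.95% of all genes. Only 5 of the 11 genes called without an offset were among these 7. With offsets for GC content and length together, 52 were above 0, and the median of the 78 was 0.11, compared with 0.02. Of the 11 genes, 4 kept their call in that fit, and 4 did with the GC offset alone. *Mrpl52* and *Mrpl49* were called in these fits as well.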

How the data were processed

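RNA from dental pulp of mandibular first molars was sequenced as single-end reads of 75 cycles, with 3 libraries per genotype. The authors deposited estimated counts per gene, of which 48.7% of values were whole (tolerance 1e-09), and a normalized signal per gene. Each signal value was the estimated count plus 1 times a factor per library, to within 0.000822%, with no division by length. The methods name TopHat and mm10 and counting over exons, and the submitters' processing notes name STAR 2.6.1d and Partek. The counting program, the handling of strand and the annotation are not given in the sources used here. The count table holds 6 further columns that match no sample of these groups and were not used.

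Counts were rounded, although whole counts had been assumed in the design. They were tested with edgeR 4.0.16 (TMM, filterByExpr, quasi-likelihood test, Benjamini-Hochberg adjustment over 19330 genes, R 4.3.3), without a block. DESeq2 1.42.0 and limma 3.58.1 (with statmod 1.5.0) served as alternatives. Scripts were tested on simulated counts. At an adjusted p under 0.05, edgeR recovered 17.9% of simulated 1.5-fold changes, 76.1% of 2-fold and 100% of 4-fold changes. A small change can therefore go uncalled. All 27506 genes matched GENCODE M21 (mm10), from which coordinates, representative transcripts and shared 75-base stretches (at least 20 per pair of genes) were taken, and promoters came from RefSeq. Total estimated counts were 56134770 to 62628940, and chi-square per gene was 60.5 to 273 between libraries of a group, far above sampling noise. The biological coefficient of variation was 18.7%, which limits what 3 libraries per group can show. Same-numbered libraries did not deviate together (correlations from −0.10 to −0.004), so the numbers were not taken as pairs. The paper counts its sequenced samples as 3 pairs but leaves their matching unstated. The sample indices in the labels repeat between the groups, so controls and mutants may have been indexed as separate sets. A difference between such sets could not be told apart from genotype.

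Named genes were, in each subunit, the 5 with the largest and 5 with the smallest log2 fold change among those with an adjusted p under 0.05, the 5 with the highest CPM per kb, and 9 genes with known special roles. From the other lists, the 2 highest and 2 lowest called genes were named. Copies and neighbours were named after their values were seen. The members and lists were chosen with earlier results of these data known. Alternatives covered other tests, scalings and filters, the normalized table with pseudocounts of 1 and 0.1, GC content and length offsets, the replicate block, each library left out, and counts summed over genes sharing sequence. The sum over pseudogenes only was added after seeing the data.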

Additional observations from a re-analysis of the deposited data

How the results depend on the processing

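The median log2 fold change of the 78 genes kept its sign in all 21 alternatives (0.08 to 0.23). With the transcript length offset it was 0.08, compared with 0.02 over all genes. With no filter on low counts it was 0.17, compared with 0.05. The number called higher, 11 in the main analysis, was 4 with scaling by library size alone (8.5% of all genes called higher) and 4 with no filter on low counts (6.4%), 7 with the transcript length offset, 18 with limma voom, and 1 to 8 when a library was left out. The number called lower, 0 in the main analysis, was 1 with the length offset (*Mrpl34*), 1 with GC content and length offsets (*Mrpl34*) and 1 after summing with all genes sharing sequence (*Mrps6*). The count over all genes, 3906, was 6341 with limma voom and 872 to 5001 when a library was left out. Same-numbered libraries did not deviate together, but the replicate number was also tried as a block. In that fit 1 of the 78 genes (*Mrpl52*) and 2013 of all genes were called (5.24% higher). The cause of these differences was not tested. Of 441 values for single named genes, 338 kept direction and side of the threshold, 91 lost the call, 3 gained it and 9 changed sign. The sign changed for *Mrpl42* (−0.12, length offset), *Mrpl44* (0.17, summed with genes sharing sequence), *Mrpl54* (−0.0299 with the GC offset, −0.22 with both offsets), *Mrps21* (−0.0933 with the length offset, −0.17 with both, and −0.054 without mutant library 3, in a range of −0.054 to 0.2119 over the libraries left out), *Mrps26* (−0.0154, summed with genes sharing sequence) and *Mrps30* (−0.0191 without control library 3, in a range of −0.0191 to 0.0814). The median level was 19.3 CPM, and *Mrpl23* alone had as few as 45 counts in a library. How far depth limits the calls was not tested.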
